A study of Rattus norvegicus with 12 samples.

Results

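The genes described here are 38 markers of the liver cells that are not hepatocytes, measured in cultures of hepatocytes. They were taken as listed: 10 of Kupffer cells and other macrophages, 8 of endothelium, 8 of stellate cells or fibroblasts, 5 of the bile duct cells called cholangiocytes, 5 of lymphocytes or natural killer (NK) cells, and 2 of neutrophils. A probe set annotated to a single gene was found for 34 of the 38, among 14217 genes named in the same way. Marco, Vsig4, Cdh5 and Sox9 had no such probe set and were not analysed here. Where a gene had several probe sets, as 9 of the 34 did, the brightest over all arrays stands for it. The stated rule uses no other measured value.

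The cells were primary hepatocytes of Wistar rats, freed from the liver with collagenase, purified on a Percoll density gradient and treated on the day after isolation. The 12 arrays form 4 groups of 3: rat interferon alpha at 250 U/ml for 3 h, the same dose for 6 h, control culture without interferon for 3 h, and control culture for 6 h. Each group holds arrays numbered 1, 2 and 3 and described as biological replicates. Nothing in the labels says which animals they came from, so p-values measure the spread between these arrays. Each probe set has a log2 value in each array, as deposited, and array medians ran from 5.16 to 5.21.

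Hepatocytes make up most of the mass of the liver, and the other cells line or fill the spaces around them. Kupffer cells are macrophages held in the sinusoids, the liver's capillaries, whose endothelial cells are perforated and take up debris from blood. Stellate cells store vitamin A between endothelium and hepatocytes and can become collagen-making myofibroblasts, and cholangiocytes form the bile ducts. Collagenase frees these cells as well, and a density gradient or a low-speed spin is used to leave most of them behind. Type I interferon acts through a receptor found on nearly all nucleated cells, including those of each type listed here.

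As a check of the labelled cell type, 23 hepatocyte genes were measured and stood between 9.61 (Cebpa) and 14.67 (Alb, serum albumin), with a median of 13.63. An array gives some signal for any probe, so 69 genes restricted to tissues such as retina, testis, pancreas and pituitary served as a rough measure of background. Their levels had a median of 4.19 and a 95th percentile of 6.36, with a highest value of 9.99. All 23 hepatocyte genes lay above that percentile. Of the 34 markers, 5 lay above it (Cd14, Epcam, Lyz2, Cldn7 and Cd68), and 20 lay at or below the median of these genes of other tissues. Probe sets differ in how strongly they bind, so levels of different genes do not give shares of cells and are not ranked as abundance. In RNA of whole cultures, fewer cells of a type and less of the transcript per cell cannot be told apart.

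**Figure D1:**
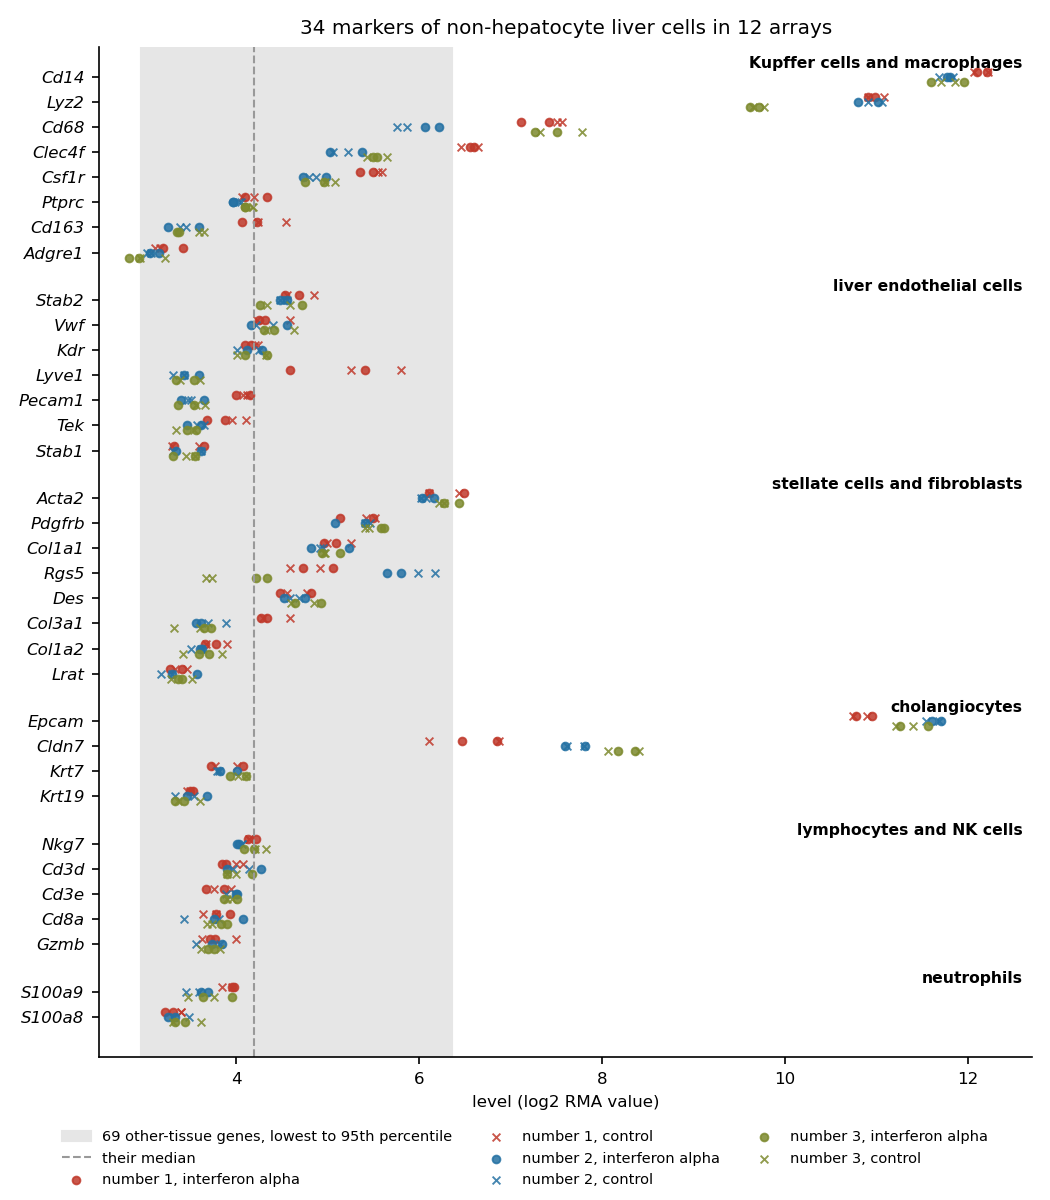
Level (log2 RMA value, horizontal axis) of each of the 34 markers in each of the 12 arrays, grouped by cell type; colour gives the replicate number, filled circles are interferon alpha cultures and crosses are control cultures. The grey band runs from the lowest level to the 95th percentile (6.36) of 69 genes restricted to other tissues and the dashed line is their median (4.19). Cd14, Lyz2 and Epcam lie to the right of the band in all 12 arrays and Cldn7 in all but 1, while the lymphocyte, NK cell and neutrophil markers lie near the dashed line.

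Markers of Kupffer cells and macrophages held both the brightest and the dimmest values of the 34. Cd14, the co-receptor for bacterial lipopolysaccharide, which hepatocytes can also make, averaged 11.90 over the 12 arrays. Lyz2, the lysozyme of macrophages and neutrophils, averaged 10.54. Cd68, a lysosomal membrane protein of macrophages, averaged 6.95. Clec4f, a lectin of Kupffer cells, averaged 5.75, and Csf1r, the receptor for macrophage colony-stimulating factor, averaged 5.09; both lay between the median and the 95th percentile of the genes of other tissues. The other 3 averaged below that median. Ptprc, the CD45 phosphatase of leukocytes, averaged 4.10 and ran from 3.96 to 4.33. Cd163, the haptoglobin-haemoglobin scavenger receptor, averaged 3.72. Adgre1, the F4/80 antigen, averaged 3.09 and ran from 2.82 to 3.42.

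The promoters of 25 of the 34 markers were matched in RefSeq (assembly GRCr8), as windows of 300 bases that begin 250 bases before the annotated start. They were searched on both strands for the letters GAAANNGAA, a short form of the interferon-stimulated response element. To that element the transcription factor complex of type I interferon binds, and longer forms of it were not searched. The letters stood in 4 of the 25 windows (16%), those of Adgre1, Cd14, Csf1r and Lyz2, against 9.71% of 33469 promoters of the same length. The core GAGGAA bound by PU.1, a transcription factor of macrophages and other blood cells, stood in 13 of the 25 (52%), against 27.6% of all. No test was made of these shares, and a match is a string of letters, not a shown binding site. The windows of Cd14, Csf1r and Lyz2 are printed because these macrophage genes lay above the background median and carry the letters of this short form. Their values under interferon alpha are given further on. Capitals mark the match, which in Csf1r reads on the opposite strand.
Cd14 (chr18:28611109-28611408, minus strand): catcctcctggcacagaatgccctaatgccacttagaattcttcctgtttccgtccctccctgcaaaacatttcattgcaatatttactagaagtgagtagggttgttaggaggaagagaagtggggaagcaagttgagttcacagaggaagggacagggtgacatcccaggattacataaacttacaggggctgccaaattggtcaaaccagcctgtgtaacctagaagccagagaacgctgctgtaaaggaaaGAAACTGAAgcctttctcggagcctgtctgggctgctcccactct
Csf1r (chr18:56834129-56834428, plus strand): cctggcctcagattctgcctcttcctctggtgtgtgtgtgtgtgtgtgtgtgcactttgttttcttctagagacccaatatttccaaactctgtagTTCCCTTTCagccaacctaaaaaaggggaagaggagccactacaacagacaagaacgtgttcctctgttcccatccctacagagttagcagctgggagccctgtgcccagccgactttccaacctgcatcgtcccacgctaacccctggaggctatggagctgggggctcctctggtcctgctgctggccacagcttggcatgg
Lyz2 (chr7:54797962-54798261, minus strand): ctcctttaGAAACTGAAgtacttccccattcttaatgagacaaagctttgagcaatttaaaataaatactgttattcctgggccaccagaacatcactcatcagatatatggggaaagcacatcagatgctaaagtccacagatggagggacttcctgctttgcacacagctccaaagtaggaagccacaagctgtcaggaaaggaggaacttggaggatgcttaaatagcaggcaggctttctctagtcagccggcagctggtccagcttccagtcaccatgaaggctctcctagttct
Relative to the annotated start, the match began at position 5 in Cd14, at position -154 in Csf1r and at position -242 in Lyz2. Cd14 and Lyz2 carried the same letters, GAAACTGAA.

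The 7 endothelial markers with a probe set were low in these cultures, from 3.46 to 4.55. Some further endothelial genes, given below, stood higher. Of the 7, 0 exceeded the 95th percentile of the genes of other tissues. Stab2, a scavenger receptor of sinusoidal endothelium that takes up hyaluronan, was the brightest of them at 4.55, and Vwf, the von Willebrand factor of larger vessels, averaged 4.36. Kdr, a receptor for vascular endothelial growth factor, averaged 4.17 and ran from 4.01 to 4.33. Stab1, a scavenger receptor related to Stab2, averaged 3.46 and ran from 3.29 to 3.65. The arrays of these 4 genes stayed within 1 log2. Pecam1, an adhesion molecule at endothelial junctions, averaged 3.70, and Tek, the angiopoietin receptor, 3.65. Lyve1, a hyaluronan receptor of sinusoidal and lymphatic endothelium, averaged 4.05 with a wide spread, from 3.31 to 5.80.

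Stellate cell and fibroblast markers ranged from 3.36 to 6.22 over 8 genes, with 0 above the 95th percentile of the genes of other tissues. Acta2, the smooth muscle actin of myofibroblasts, was the brightest at 6.22, followed by Pdgfrb, a receptor for platelet-derived growth factor, at 5.41. Of the 3 genes for chains of fibrillar collagen, Col1a1 averaged 5.02 (4.81 to 5.25), Col3a1 3.88 (3.32 to 4.59) and Col1a2 3.66 (3.41 to 3.90). Rgs5, a regulator of G-protein signalling found in pericytes, averaged 4.90, and Des, the muscle filament desmin that marks rat stellate cells, averaged 4.68 and ran from 4.48 to 4.92. Lrat, which makes the retinyl esters stored by stellate cells, averaged 3.36 and ran from 3.17 to 3.57, all below the median of the genes of other tissues.

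The 4 cholangiocyte markers divided widely. Epcam, an adhesion molecule of bile duct and other epithelia, averaged 11.28, and Cldn7, a tight junction claudin, 7.51. The keratins that define bile duct cells stood near background instead, with Krt7 at 3.93 (3.72 to 4.10) and Krt19 at 3.47 (3.33 to 3.68), below the median of the genes of other tissues. Neither Epcam nor Cldn7 is confined to cholangiocytes among epithelia, and which cells gave their signal was not tested.

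Lymphocyte and NK cell markers ranged from 3.74 to 4.13 over 5 genes, all at or below the median of the genes of other tissues. They comprised Nkg7, a granule protein of cytotoxic cells, at 4.13, and Cd3d and Cd3e, CD3 chains of the T-cell receptor complex, at 4.00 and 3.90. Cd3e ran from 3.67 to 4.01 over the 12 arrays. Cd8a, the co-receptor of cytotoxic T cells, stood at 3.78 (3.43 to 4.07) and the protease granzyme B (Gzmb) at 3.74 (3.56 to 3.99). The neutrophil proteins S100a9 and S100a8, which together form calprotectin, stood at 3.74 and 3.37. Of 8 markers of red cells and their precursors, 1 lay above the 95th percentile, the haemoglobin chain Hbb at 6.66.

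A comparison across the replicate numbers asked whether 1 set of cultures carried more of these transcripts than another. Arrays of the same number deviated together in all 4 groups, and the test was the moderated F test of limma over the 3 numbers with the groups kept in the model. By it 14 of the 34 markers differed at an adjusted p under 0.05. The 4 arrays of a number may share a source, so the p-values of this test measure the spread between arrays within a number. They compare these 3 sets of cultures and not isolations in general. The numbers differed widely in general: 29.9% of all 31042 probe sets tested passed the same test, and so did 50.5% of the 15521 above the median level. Of the 15521 at or below the median level, where most of the markers lay, 9.26% passed. On the brightest probe set per gene, as used for the markers, 38.1% of the 14217 named genes passed, against 41.2% of markers. The share that passed thus depended on level, and the 38.1% given below for named genes is not matched to the markers for level. Of the 14 markers called, 10 were highest in the cultures numbered 1, 2 in number 2 and 2 in number 3. Of the 9282 probe sets called, 1990 were highest in number 1, 3497 in number 2 and 3795 in number 3. This difference in direction was not itself tested, since the members of a list are not independent of each other.

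In 8 of the 34 markers all 4 arrays of number 1 lay above the other 8 arrays, against 2.09% of all probe sets. In 2 of the 34, Epcam and Cldn7, all 4 lay below them, against 1.47% of all. All 4 arrays of number 2 lay above the other 8 in 1 marker, Rgs5 (3.73% of all), and below them in 4, Cd68, Clec4f, Ptprc and Nkg7 (2.55%). All 4 arrays of number 3 lay above in 1 marker, Cldn7 (5.25% of all), and below in 2, Lyz2 and Rgs5 (5.18%). These shares are of all probe sets. Of the 14217 named genes on their brightest probe set, 373, 706 and 1067 lay apart above in numbers 1, 2 and 3. Apart below were 272, 511 and 1035. In the values that follow, the 4 arrays of a number are given as interferon alpha 3 h, interferon alpha 6 h, control 3 h and control 6 h.

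**Figure D2:**
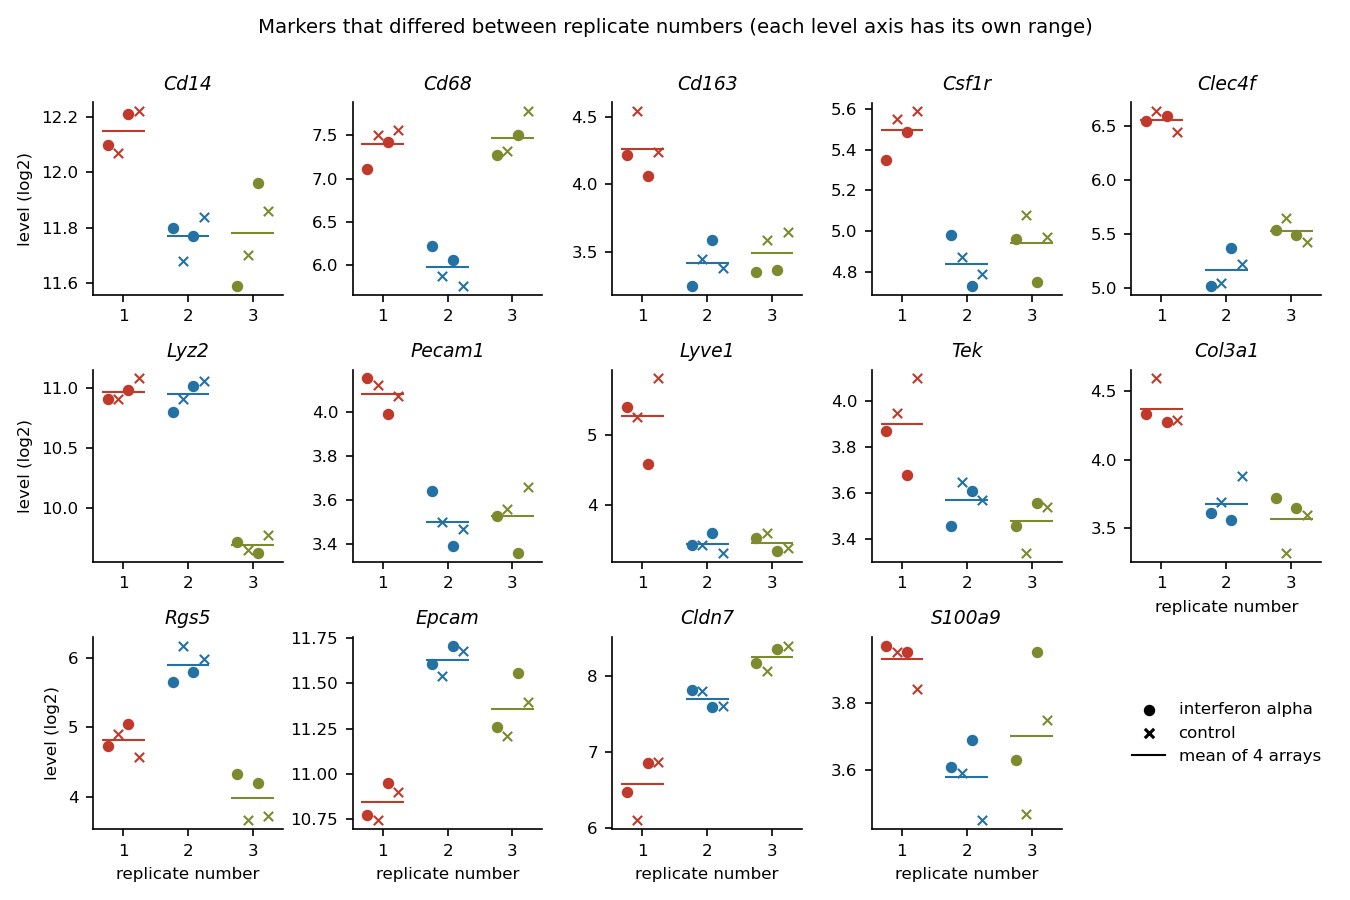
Level (log2 RMA value, vertical axis) of the 14 markers that differed between replicate numbers, one panel each, with the 4 arrays of each replicate number as points (circles for interferon alpha, crosses for control) and their mean as a bar. In Cd14, Cd163, Csf1r, Clec4f, Pecam1, Lyve1, Tek and Col3a1 all 4 arrays of number 1 lie above the other 8, and in Epcam and Cldn7 all 4 lie below.

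Among macrophage markers 6 of 8 passed the test (75%, against 38.1% of named genes). Of these, 4 (Cd14, Cd163, Csf1r and Clec4f) were apart and highest in number 1. Clec4f stood at 6.55, 6.60, 6.64 and 6.45 in number 1, at 5.02, 5.37, 5.05 and 5.22 in number 2, and at 5.54, 5.49, 5.65 and 5.43 in number 3. The 3 sets did not overlap, and number 1 exceeded number 2 by 1.39 log2, a factor of 2.63 (limma adjusted p = 1.19e-06). Cd163 stood at 4.22, 4.06, 4.54 and 4.24 in number 1, at 3.25, 3.59, 3.45 and 3.38 in number 2, and at 3.35, 3.37, 3.59 and 3.65 in number 3. It lay near the background median in number 1 and below it in the others (adjusted p = 7.55e-05). Csf1r stood at 5.35, 5.49, 5.55 and 5.59 in number 1, at 4.98, 4.73, 4.87 and 4.79 in number 2, and at 4.96, 4.75, 5.08 and 4.97 in number 3, where numbers 2 and 3 overlapped and number 1 was apart (adjusted p = 0.000141). Cd14 stood at 12.10, 12.21, 12.07 and 12.22 in number 1, at 11.80, 11.77, 11.68 and 11.84 in number 2, and at 11.59, 11.96, 11.70 and 11.86 in number 3. Its excess in number 1 was smaller, 0.38 log2 or 1.3-fold over number 2 (adjusted p = 0.00189).

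The other 2 macrophage markers called followed other orders. Cd68 stood at 7.11, 7.42, 7.51 and 7.56 in number 1, at 6.22, 6.06, 5.87 and 5.76 in number 2, and at 7.27, 7.51, 7.32 and 7.78 in number 3. Number 2 alone was apart, below the others, and number 3 exceeded it 2.82-fold (adjusted p = 1.29e-05). Lyz2 stood at 10.91, 10.98, 10.91 and 11.08 in number 1, at 10.80, 11.02, 10.91 and 11.06 in number 2, and at 9.71, 9.62, 9.65 and 9.77 in number 3. Here number 3 alone was apart, below the others, and number 1 exceeded it 2.43-fold (adjusted p = 1.13e-07). Ptprc (adjusted p = 0.188) and Adgre1 (adjusted p = 0.173) did not pass. The second, dimmer probe set of Ptprc averaged 3.46 in number 1, 3.22 in number 2 and 3.17 in number 3, and did not pass either (adjusted p = 0.0669).

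Of the endothelial markers 3 of 7 passed (42.9%, against 38.1% of named genes), each apart and highest in number 1. All 7 lay below the median level of all probe sets, and at or below that level 9.26% of probe sets passed. Lyve1 stood at 5.40, 4.58, 5.25 and 5.80 in number 1, at 3.43, 3.59, 3.43 and 3.31 in number 2, and at 3.53, 3.34, 3.60 and 3.38 in number 3. Number 1 was apart above the others (adjusted p = 2.16e-05), and since numbers 2 and 3 lay below the background median, no fold is given. Its second probe set averaged 4.74 in number 1, 3.31 in number 2 and 3.29 in number 3 (adjusted p = 8.92e-06). Pecam1 stood at 4.15, 3.99, 4.12 and 4.07 in number 1, at 3.64, 3.39, 3.50 and 3.47 in number 2, and at 3.53, 3.36, 3.56 and 3.66 in number 3 (adjusted p = 5.68e-05). Tek stood at 3.87, 3.68, 3.95 and 4.10 in number 1, at 3.46, 3.61, 3.65 and 3.57 in number 2, and at 3.46, 3.56, 3.34 and 3.54 in number 3 (adjusted p = 0.00698), with its lowest array of number 1 just above the highest of number 2. All 12 values of Pecam1 and of Tek lay below the background median, and how much of such a signal is background cannot be read from these values. Stab2 stood at 4.68, 4.53, 4.85 and 4.55 in number 1, at 4.55, 4.48, 4.55 and 4.48 in number 2, and at 4.72, 4.26, 4.59 and 4.33 in number 3, and the sets overlapped (adjusted p = 0.215). Vwf stood at 4.25, 4.31, 4.59 and 4.22 in number 1, at 4.16, 4.55, 4.21 and 4.40 in number 2, and at 4.41, 4.30, 4.32 and 4.63 in number 3, again overlapping (adjusted p = 0.83). Kdr (adjusted p = 0.96) and Stab1 (adjusted p = 1) had number means within 0.03 log2 of each other. The second, dimmer probe set of Kdr averaged 3.63 in number 1, 3.34 in number 2 and 3.42 in number 3, and did not pass (adjusted p = 0.064).

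Among stellate cell markers 2 of 8 passed (25%, against 38.1% of named genes). All but Acta2 and Pdgfrb lay below the median level of all probe sets, and at or below that level 9.26% of probe sets passed. Col3a1 stood at 4.33, 4.27, 4.59 and 4.29 in number 1, at 3.61, 3.56, 3.69 and 3.88 in number 2, and at 3.72, 3.65, 3.32 and 3.60 in number 3. Number 1 was apart above the others (adjusted p = 0.000353), which lay below the background median, so no fold is given. The pericyte gene Rgs5 stood at 4.73, 5.05, 4.91 and 4.58 in number 1, at 5.65, 5.80, 6.17 and 5.98 in number 2, and at 4.33, 4.21, 3.67 and 3.73 in number 3. Its 3 sets did not overlap, and it was highest in number 2 (adjusted p = 1.55e-05). No fold is given, since number 3 averaged 3.99, below the background median. Acta2 stood at 6.49, 6.11, 6.43 and 6.11 in number 1, at 6.16, 6.03, 6.02 and 6.07 in number 2, and at 6.43, 6.27, 6.27 and 6.22 in number 3, with number means within 0.23 log2 (adjusted p = 0.0626). Pdgfrb stood at 5.49, 5.13, 5.42 and 5.51 in number 1, at 5.08, 5.40, 5.41 and 5.46 in number 2, and at 5.61, 5.58, 5.41 and 5.45 in number 3, and overlapped throughout (adjusted p = 0.448). Des, Col1a1, Col1a2 and Lrat did not pass either, with number means that differed by 0.12, 0.10, 0.17 and 0.06 log2.

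Of the cholangiocyte markers 2 of 4 passed (50%, against 38.1% of named genes), the bright Epcam and Cldn7. Both were lowest in number 1. Epcam stood at 10.77, 10.95, 10.74 and 10.90 in number 1, at 11.61, 11.71, 11.54 and 11.68 in number 2, and at 11.26, 11.56, 11.21 and 11.40 in number 3. Number 1 was apart below the others, and number 2 exceeded it 1.74-fold (adjusted p = 6.07e-06). Cldn7 stood at 6.47, 6.85, 6.10 and 6.87 in number 1, at 7.81, 7.59, 7.80 and 7.61 in number 2, and at 8.17, 8.36, 8.06 and 8.40 in number 3. Its 3 sets did not overlap, and number 3 exceeded number 1 3.19-fold (adjusted p = 1.09e-05). Krt7 (adjusted p = 0.35) and Krt19 (adjusted p = 0.724) did not pass and stayed below the background median in every array.

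Of the lymphocyte and NK cell markers 0 of 5 passed the limma test between numbers, against 38.1% of named genes. All 5 lay below the median level of all probe sets, and at or below that level 9.26% of probe sets passed. With limma-trend 0 passed, and in the limma test 0 had an unadjusted p under 0.05. Nkg7 stood at 4.21, 4.13, 4.14 and 4.14 in number 1, at 4.01, 4.03, 4.06 and 4.06 in number 2, and at 4.19, 4.08, 4.20 and 4.32 in number 3, a spread of 0.16 log2 between number means (adjusted p = 0.169). Cd3d stood at 3.88, 3.84, 4.07 and 4.00 in number 1, at 3.90, 4.27, 3.96 and 4.14 in number 2, and at 3.90, 4.17, 3.90 and 3.99 in number 3 (adjusted p = 0.566). Cd3e, Cd8a and Gzmb had adjusted p of 0.296, 0.986 and 0.808. S100a9 stood at 3.97, 3.95, 3.95 and 3.84 in number 1, at 3.61, 3.69, 3.59 and 3.45 in number 2, and at 3.63, 3.95, 3.47 and 3.75 in number 3. It passed narrowly with overlapping sets (adjusted p = 0.0223), below the background median in every array. S100a8 stood at 3.22, 3.31, 3.39 and 3.39 in number 1, at 3.25, 3.33, 3.48 and 3.32 in number 2, and at 3.44, 3.33, 3.61 and 3.31 in number 3 (adjusted p = 0.56).

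Without the 4 arrays of number 1, the count of markers called was 7. Cd14, Cd163, Csf1r, Pecam1, Lyve1, Tek, Col3a1 and S100a9 no longer passed and Acta2 did; where numbers 2 and 3 overlap, this follows from leaving out the number that was apart and is no check of the result. Whether the numbers stand for separate animals, isolations or days of array work is not given in the labels, and these cannot be told apart. Measures of RNA and array quality overlapped between the numbers: the 3' minus 5' difference of the beta-actin control probe sets ran from 0.608 to 0.694 log2 in number 1, from 0.672 to 0.785 in number 2 and from 0.583 to 0.694 in number 3.

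Further markers of the same cell types, none among the 38, gave a wider view of this difference between numbers. They were chosen with earlier results of these data known and are no independent check of it. Of 15 further macrophage genes 12 passed, and in all of these 12 the 4 arrays of number 1 lay above the other 8. The share of named genes that passed the same test was 38.1%. Over the 15, the median deviation from the mean of 12 arrays was 0.89 log2 in number 1, -0.42 in number 2 and -0.36 in number 3. Cd74, the invariant chain of MHC class II, averaged 8.91 ± 0.18 in number 1, 7.13 ± 0.12 in number 2 and 5.76 ± 0.08 in number 3 (SD, n = 4 each; limma adjusted p = 9.06e-09). Cd5l, a protein secreted by Kupffer and other tissue macrophages, averaged 7.42 ± 0.17 in number 1, 4.78 ± 0.11 in number 2 and 5.44 ± 0.12 in number 3 (SD, n = 4 each; limma adjusted p = 1.72e-08). C1qa, a chain of the first complement component made by macrophages, averaged 6.98 ± 0.11, 4.65 ± 0.31 and 5.25 ± 0.08 in numbers 1, 2 and 3 (SD, n = 4 each; limma adjusted p = 1.70e-07).

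Of 12 further endothelial genes 7 passed (58.3%, against 38.1% of named genes), all 7 highest in number 1 and 3 of them apart there. The 3 with the largest spread were Fcgr2b, an inhibitory Fc receptor of sinusoidal endothelium and leukocytes, Esam, a junctional adhesion molecule, and Bmp2, a growth factor that sinusoidal endothelium makes to set hepatocyte iron control. Esam averaged 6.80 ± 0.18 in number 1, 6.09 ± 0.16 in number 2 and 6.24 ± 0.08 in number 3 (SD, n = 4 each; limma adjusted p = 0.000744). Fcgr2b averaged 8.14 ± 0.15, 7.39 ± 0.34 and 8.03 ± 0.19, and was apart only in number 2, below. All its means, and that of Esam in number 1, lay above the 95th percentile of the genes of other tissues (6.36). Of 15 further stellate genes 4 passed (26.7%, against 38.1% of named genes), highest in number 1, and 2 of them were apart there. Timp1, an inhibitor of matrix proteases, averaged 7.82 ± 0.13, 7.64 ± 0.11 and 5.95 ± 0.22 (limma adjusted p = 3.27e-07), and Bgn, the matrix proteoglycan biglycan, 4.67 ± 0.18, 4.01 ± 0.04 and 4.00 ± 0.19. The means of Timp1 in numbers 1 and 2 lay above the same percentile.

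Of 10 further cholangiocyte genes 2 passed (20%, against 38.1% of named genes), and 0 of these were highest in number 1. Cldn4, a claudin like Cldn7, averaged 6.57 ± 0.05 in number 1, 5.69 ± 0.18 in number 2 and 8.51 ± 0.17 in number 3 (SD, n = 4 each; limma adjusted p = 1.25e-08). Prom1, a membrane protein of progenitor and duct cells, averaged 6.27 ± 0.04, 7.62 ± 0.10 and 5.89 ± 0.15, so the epithelial genes did not share 1 order. Of 14 further lymphocyte genes 3 passed (21.4%), 2 of them highest in number 1 with 0 apart there. Of 5 further neutrophil genes 1 passed (20%), highest and apart in number 1. Of the 8 red cell markers 1 passed, Hbb, which averaged 7.29 ± 0.22 in number 1, 6.32 ± 0.10 in number 2 and 6.37 ± 0.11 in number 3 and was apart in number 1. Among the 23 hepatocyte genes 11 passed (47.8%, against 50.5% of probe sets above the median level), 5 of them highest in number 1, 5 in number 2 and 1 in number 3. Of the 69 genes of other tissues 9 passed (13%).

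**Figure D3:**
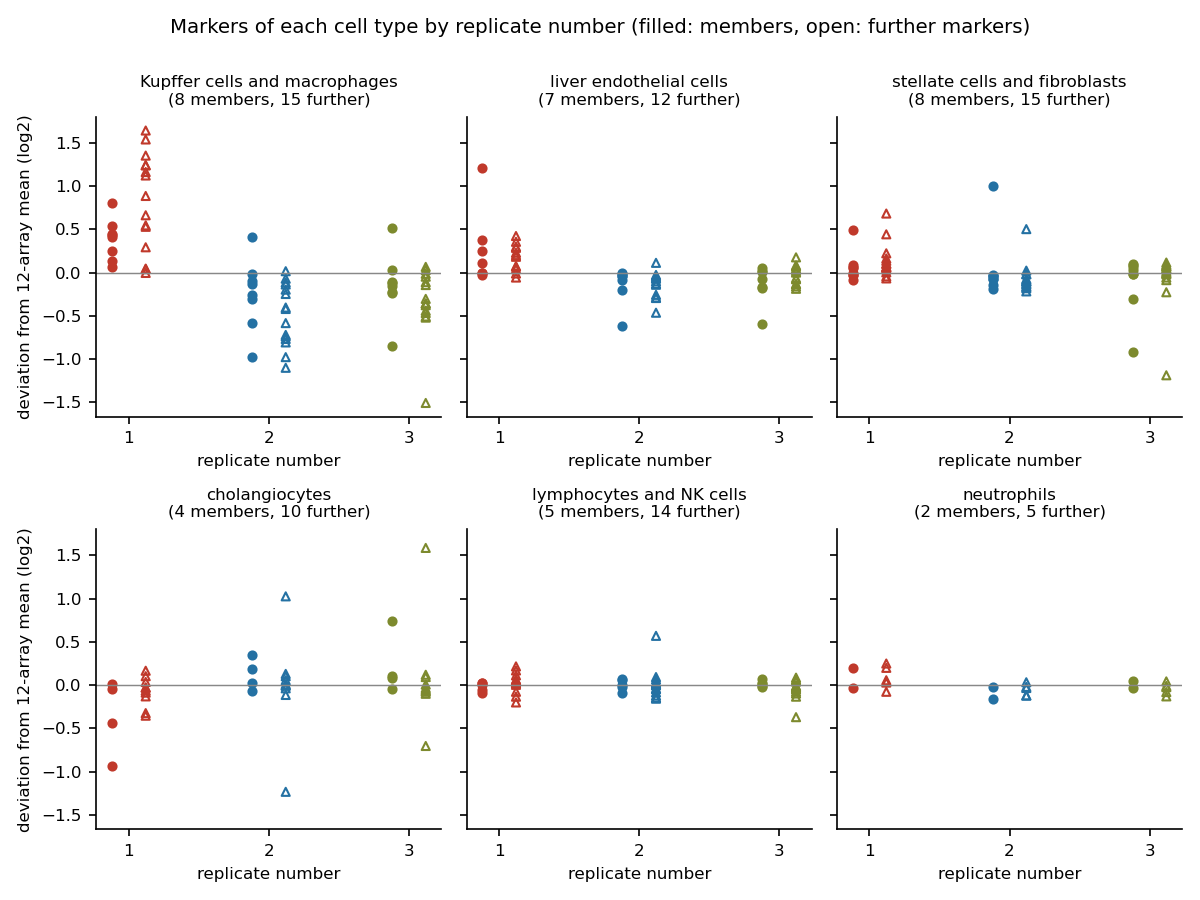
Deviation of each gene's mean level in a replicate number from its mean over 12 arrays (log2, vertical axis), by replicate number (horizontal axis), one panel per gene list; filled circles are the 34 markers, open triangles the further markers of the same cell type, and colours repeat the replicate number. Most macrophage genes lie above 0 in number 1 and below it in numbers 2 and 3, with a median of the further ones of 0.89 in number 1. The medians of the further lymphocyte and of the further neutrophil genes lie within 0.05 of 0 in each number. Single genes among them differed between numbers, 3 of the 14 lymphocyte and 1 of the 5 neutrophil genes.

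The comparison at 6 h asked whether the remaining cells' markers changed under interferon alpha after the longer exposure. By limma 0 of the 34 markers passed, against 0.387% of all probe sets (120 of 31042), and with the replicate number as a block 0 of 34 passed, against 1.10% of all. At an unadjusted p under 0.05 there were 0 markers in either fit. The log2 changes ran from -0.33 to 0.26 with a median of -0.03, and the median over all probe sets was -0.015. With the block, the 95% confidence intervals of all 34 changes lay within -0.79 and 0.66 log2, and so within 1 log2 on either side of 0. Without it they were wider, from -2.01 to 1.80, 28 of the 34 lay within 1 log2 of 0, and the adjusted p was 1 for all 34. Below, the standard error (SE) of a single marker's change is that of the fit with the block, which keeps the difference between numbers out of it.

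Macrophage markers that carry the letters of the response element's short form near their start did not pass at 6 h. Cd14 stood at 12.21, 11.77 and 11.96 in the interferon alpha cultures numbered 1, 2 and 3, against 12.22, 11.84 and 11.86 in the controls. The groups overlapped, and the change was 0.01 ± 0.08 log2 (SE; blocked limma adjusted p = 0.992). Lyz2 stood at 10.98, 11.02 and 9.62 with interferon alpha, against 11.08, 11.06 and 9.77 in the controls, a change of -0.10 ± 0.07 (adjusted p = 0.781). Csf1r stood at 5.49, 4.73 and 4.75 with interferon alpha, against 5.59, 4.79 and 4.97 in the controls, a change of -0.13 ± 0.09 (adjusted p = 0.78). In both Lyz2 and Csf1r each treated array lay below the control of its own number, with differences between -0.04 and -0.22. Adgre1 changed by 0.00 ± 0.11 at a level below the background median.

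The widest changes at 6 h belonged to genes that differed between numbers. Lyve1 stood at 4.58, 3.59 and 3.34 in the interferon alpha cultures, against 5.80, 3.31 and 3.38 in the controls. The negative mean change, -0.33 ± 0.21 log2 with the block (limma adjusted p = 0.736), came from the pair numbered 1, with a difference of -1.22, while the pairs numbered 2 and 3 differed by 0.28 and -0.04. Without replicate 1 it was 0.12. The second probe set of Lyve1 changed by -0.44 and did not pass (blocked limma adjusted p = 0.386). Rgs5 stood at 5.05, 5.80 and 4.21 with interferon alpha, against 4.58, 5.98 and 3.73 in the controls, a change of 0.26 ± 0.18 (blocked limma adjusted p = 0.776). Epcam stood at 10.95, 11.71 and 11.56 with interferon alpha, against 10.90, 11.68 and 11.40 in the controls, a change of 0.08 ± 0.07 with a 95% interval of -0.07 to 0.23. By cell type, the median changes were -0.04 for macrophage, -0.12 for endothelial, -0.03 for stellate, 0.02 for cholangiocyte, 0.02 for lymphocyte and 0.09 for neutrophil markers.

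**Figure D4:**
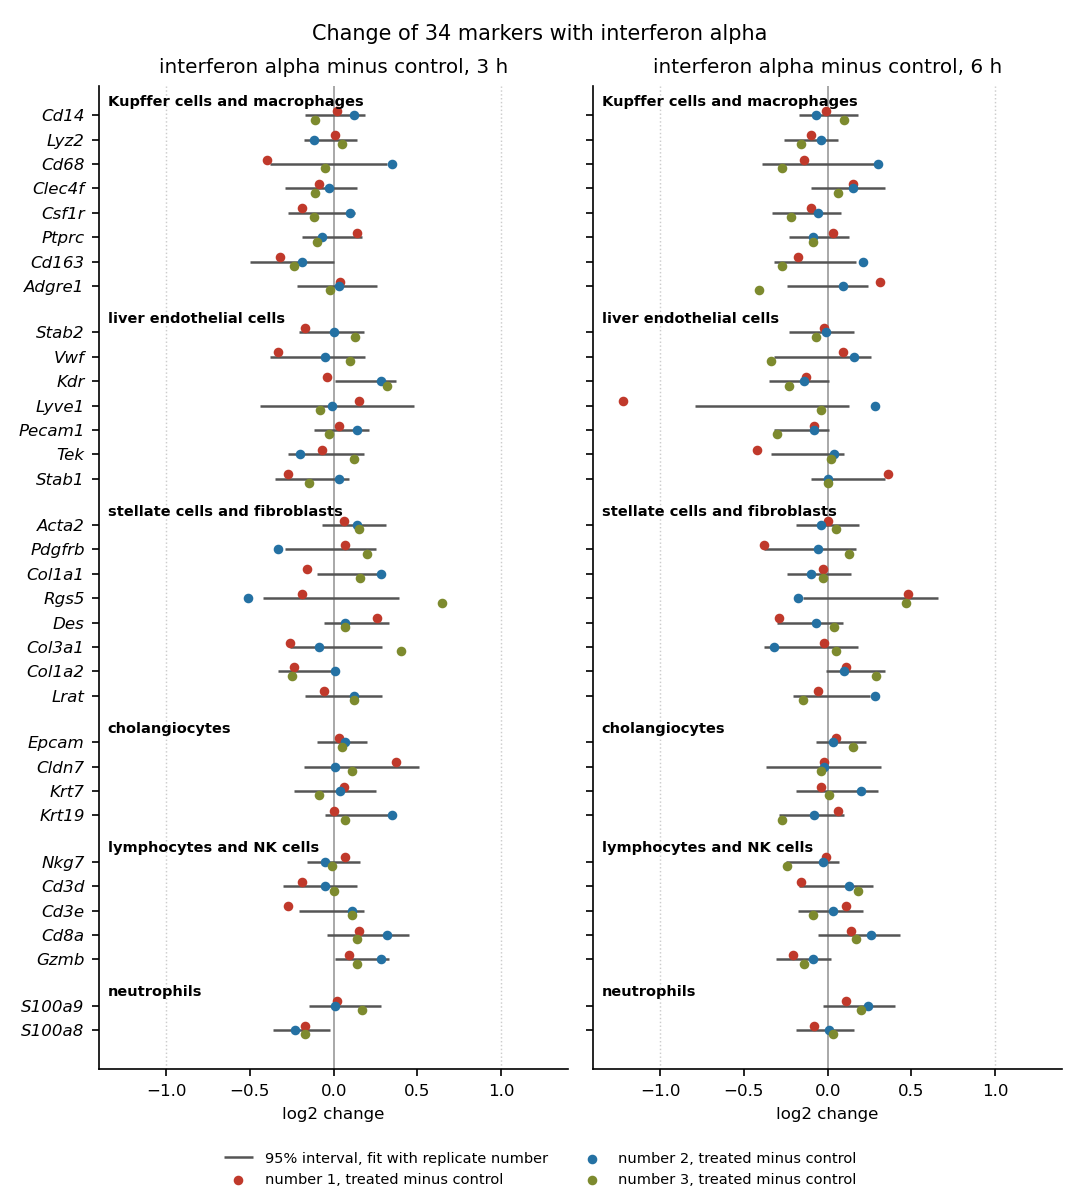
Change of each of the 34 markers under interferon alpha (interferon alpha minus control, log2, horizontal axis) at 3 h and 6 h, with 3 points for the differences within the replicate numbers and a line for the 95% confidence interval of their mean in the limma fit with the number as a block (n = 3 arrays per group). The point farthest from 0 is Lyve1 in number 1 at 6 h (-1.22), and no interval reaches 1 log2 on either side of 0.

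At 3 h limma again called 0 of the 34 markers, against 0.00644% of all probe sets, and 0 with the block, against 0.0966%. At an unadjusted p under 0.05 there were 3 markers, and 4 with the block. The changes ran from -0.25 to 0.20 log2 with a median of 0.00, and the blocked 95% intervals of all 34 lay within -0.50 and 0.51. Cd163 had the lowest value: it stood at 4.22, 3.25 and 3.35 with interferon alpha, against 4.54, 3.45 and 3.59 in the controls. Each treated array lay below its own control, with a change of -0.25 ± 0.11 (SE, with the block) that did not pass (limma adjusted p = 0.729), and at 6 h the value was -0.08 ± 0.11. Cd8a had the highest value, 0.20 ± 0.11, at a level below the background median. S100a8, Kdr and Gzmb, the 3 markers under an unadjusted 0.05, changed by -0.19, 0.19 and 0.17. Cd14 changed by 0.01 ± 0.08, Lyz2 by -0.02 ± 0.07 and Csf1r by -0.07 ± 0.09.

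The difference between the interferon effects at 6 h and 3 h was tested as an interaction. By limma 0 of 34 markers passed, as did 0% of all probe sets in both fits, and 3 markers had an unadjusted p under 0.05, with and without the block. Kdr had the lowest difference, -0.36 ± 0.11, and Col1a2 the highest, 0.32 ± 0.11 (SE with the block; limma adjusted p = 0.815 and 0.915). Kdr lay on both sides of the background median, and Col1a2 lay below it in every array. Of the 71 further markers of these cell types, 0 passed at 6 h and 0 at 3 h by limma, with or without the block, and 5 had an unadjusted p under 0.05 at 6 h and 4 at 3 h with the block.

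The last comparison set control cultures at 6 h against those at 3 h, to show whether the markers shifted with time alone. By limma 0 of 34 markers passed, against 0.190% of all probe sets, with 3 at an unadjusted p under 0.05, and changes ran from -0.26 (Col1a2) to 0.30 (Cldn7). With the replicate block 1 of 34 passed, against 8.15% of all probe sets, and 5 had an unadjusted p under 0.05. This was Gzmb, which stood at 3.99, 3.82 and 3.82 at 6 h, against 3.62, 3.56 and 3.61 at 3 h. The groups did not overlap, and the change was 0.28 ± 0.07 log2 (SE; limma adjusted p = 0.0407 with the block and 0.198 without). All 6 values lay below the background median, and the other probe set of Gzmb changed by -0.01 (blocked adjusted p = 0.961). Cldn7 stood at 6.87, 7.61 and 8.40 at 6 h, against 6.10, 7.80 and 8.06 at 3 h, and the pairs did not share a direction. Cd14, Lyz2 and Epcam were each higher at 6 h in all 3 pairs, by 0.15 ± 0.08, 0.15 ± 0.07 and 0.16 ± 0.07 (SE with the block; adjusted p = 0.305, 0.284 and 0.197), and did not pass. Among the 71 further markers 0 passed without the block, with 3 at an unadjusted p under 0.05, and 2 passed with it, when 8.15% of all probe sets did. The complement gene C1qc averaged 5.53 at 6 h, against 6.06 at 3 h, lower in all 3 pairs, with a change of -0.53 ± 0.10 (blocked limma adjusted p = 0.00895 and 0.903 without the block). The other chains of the same complex did not pass: C1qa averaged 5.66 at 6 h, against 5.45 at 3 h, and C1qb 6.34 at 6 h, against 6.22 at 3 h, with changes of 0.21 ± 0.13 and 0.12 ± 0.11 and pairs that differed in direction. The values of C1qa and C1qb in this comparison were chosen after they were seen. Zap70, a kinase of T-cell receptor signalling, averaged 7.27 at 6 h, against 8.08 at 3 h, also lower in all 3 pairs, with a change of -0.81 ± 0.10 (blocked limma adjusted p = 0.00157 and 0.49 without the block). Both means lay above the 95th percentile of the genes of other tissues (6.36).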

How the data were processed

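Total RNA of 12 hepatocyte cultures was hybridised to Affymetrix rat arrays. The submitters' processing notes name R 2.10.0, affy and RMA for the log2 values deposited by the authors. RMA gives every array the same distribution of probe intensities, and a change common to most transcripts would therefore be lost. Which probe set definition file was used is not stated. Of 31099 probe sets, 57 controls were left out and 31042 tested. Names came from the platform annotation, for probe sets with 1 gene symbol (20826 probe sets, 14217 genes).

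Groups were compared with limma 3.58.1 in R 4.3.3 (lmFit and eBayes, 4 groups, 12 arrays, two-sided tests), adjusted by Benjamini-Hochberg over all probe sets, and called at an adjusted p under 0.05. The fit was first tested on simulated data. Simulated noise was independent between arrays, so the fit without the block was not tested on arrays of 1 number that deviate together. Replicate numbers come from the titles. Arrays of the same number deviated together from their group means, with correlations of 0.479 to 0.829 over 18 pairs. The 36 pairs of different numbers gave -0.562 to -0.0747, which is not separate evidence, since deviations within a group cancel out. A fit with the number as a block was therefore run, and numbers were compared by an F test with the groups in the model. Every marker with a probe set is named. Values in each array are given for markers called in any fit and for the 2 brightest of each cell type. Further lists give at most 3 genes each in a comparison by rule, those called by size of change; exceptions are named as chosen after their values were seen. Depth has no meaning for arrays, and their number, 3 a group, limits the precision. The markers, lists and tests were chosen with earlier results of these data known. Alternatives were other centring, limma-trend, a filter on dim probe sets, other probe sets of a gene, another threshold, the block, and leaving out arrays. Probe sets annotated to several genes, among them 5 shared by Acta2 and Actc1, were not used.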

Additional observations from a re-analysis of the deposited data

How the results depend on the processing

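Of 2616 marker values recomputed under the alternatives for the group comparisons, 2615 stayed on the same side of the threshold, 1 passed only there (Gzmb, control 6 h minus control 3 h, with the replicate block) and 320, none of them called, changed sign. With the replicate block, the count of markers called was 1 for control 6 h minus control 3 h and 0, as without it, in the interferon comparisons. The block moved the probe sets called to 340 at 6 h of interferon alpha (120 without it), 30 at 3 h (2 without it) and 2529 for control 6 h minus control 3 h (59 without it). At 3 h the count was 1 with arrays centred on their median, 1 with limma-trend, 1 with only probe sets above the median level and 9 at an adjusted p under 0.10. For control 6 h minus control 3 h it was 8 with limma-trend and 176 at an adjusted p under 0.10. Leaving out arrays gave 0 to 124 probe sets at 6 h, 0 to 23 at 3 h and 1 to 16 for the controls.

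For the comparison of replicate numbers, leaving out arrays gave 7 to 15 markers called (14 with all arrays) and 3305 to 9067 probe sets. Without replicate 1 it was 7 markers; without replicate 2 Cd68 and S100a9 were lost, and without replicate 3 Lyz2 and Tek. Of single arrays, 5 when left out cost the call of S100a9, and Adgre1 or Acta2 was gained without 1 array each. With only probe sets above the median level, 8 markers could be tested and 7 passed, Acta2 among them. Centring, limma-trend and the mean of a gene's probe sets gave the same 14 markers. Besides the 3 arrays a group, signal over background limits these values: 20 of the 34 markers lay at or below the median of genes restricted to other tissues, so a small change in their RNA may not show.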
